A study of Drosophila melanogaster with 9 samples.

Results

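Spindly, nudE, Lis-1, rod, Zw10, Zwilch and Dhc64C encode the cytoplasmic dynein heavy chain and proteins that bind dynein or bring it to the kinetochore. They were found by symbol in both deposited tables, so all 7 were present among the 6440 genes listed. They were chosen by their measured levels in the 9 libraries, with the differences between the groups already known, so their levels and fold changes are given here as a description and without a test.

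Cytoplasmic dynein walks towards the minus ends of microtubules and needs dynactin and an adaptor to move cargo over long distances. At the kinetochore the complex of Rod, Zw10 and Zwilch binds Spindly, which in turn engages dynein and dynactin, and the motor then strips checkpoint proteins from attached kinetochores. NudE and Lis-1 bind dynein directly and regulate its motor. In the early fly embryo nuclei divide in a shared cytoplasm on maternal supplies, and dynein also carries mRNAs and positions nuclei and spindles there.

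Wild type embryos of Drosophila melanogaster, laid and aged at 25 °C and 0 to 3 h old, gave all libraries. These hold total RNA after depletion of ribosomal RNA. In ORB2 IP, 3 libraries hold RNA immunoprecipitated with an antibody fragment (Fab) against ORB2, a fly RNA-binding protein of the CPEB family. In control IP, 3 libraries hold RNA immunoprecipitated with a Fab against EGFR, and in input 3 libraries hold RNA with no immunoprecipitation. All 3 groups share the genotype, age and cleared embryo extract, and the labels do not say whether the replicates came from separate embryo collections, so p-values measure only the spread between these libraries.

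Normalized-count totals ran from 3952548 to 5368634 in ORB2 IP, from 3504705 to 3747319 in control IP and from 2625388 to 2856867 in input. These are totals after scaling by the authors, so the sequencing depth is unknown. The coarsest library was ORB2 IP replicate 2, whose lowest positive value was 5.70 normalized counts, against 0.70 to 1.73 in the 8 others. The mRNA of the precipitated protein, orb2, exceeded its control IP level by 7.54 on the log2 scale in ORB2 IP (SE 0.29; limma adjusted p 6.46e-09). All 7 early embryo markers, all 5 germ plasm markers and all 5 markers of the zygotic blastoderm were listed, while none of 7 follicle cell and eggshell markers and none of 5 later embryo markers was among the genes listed. Their summed normalized counts in ORB2 IP, control IP and input ran from 11510 to 13160, 11590 to 13260 and 17660 to 22430 for the early embryo. The sums for germ plasm ran from 3805 to 6427, 1828 to 2996 and 6345 to 8459 in the same order of groups, and for the zygotic blastoderm from 991 to 1383, 1342 to 2735 and 1384 to 1635. nos and osk count in both the early embryo and germ plasm sums. The sums mix genes of opposite direction. In control IP halo averaged 1054, against 88.8 in input, and Sry-alpha 221, against 915. slam alone held 1067 in control IP replicate 2. CycB averaged 5981 in ORB2 IP and 8310 in control IP, and osk 1563 and 629.

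A pair of libraries stood apart. Across genes, the Spearman correlation of ORB2 IP replicate 3 with control IP was 0.929 to 0.953, compared with 0.828 to 0.875 for ORB2 IP replicates 1 and 2. Input replicate 1 correlated with the 6 immunoprecipitates at 0.811 to 0.856, compared with 0.557 to 0.671 for input replicates 2 and 3. In input replicate 1, 125 of 6440 genes (1.94%) were at least 4 times as high as in both other inputs, a pattern shown by 0 genes in input replicate 2 and 1 gene in input replicate 3. Values that moved most without these libraries are given with and without them.

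Spindly, the dynein adaptor of the kinetochore, was among the transcripts most raised in both immunoprecipitates relative to input. It had 763, 891 and 578 normalized counts in ORB2 IP, 991, 700 and 848 in control IP and then 41.7, 25.6 and 17.7 in input. The 6 immunoprecipitates all lay above the 3 inputs, and the lowest ORB2 IP library was 13.9 times the highest input. ORB2 IP exceeded input by 4.73 on the log2 scale (SE 0.33), a rank of 25 from the top among 6344 genes. Control IP exceeded input by 4.92 (SE 0.31), a rank of 8 among 6355 genes. Without input replicate 1 these differences were 5.04 and 5.23. Between ORB2 IP and control IP the values overlapped, at −0.19 (SE 0.20), or 0.06 when taken from the TPM table, where the median of all genes stood at 0.24. Without ORB2 IP replicate 3 that difference was −0.02.

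Spindly lies on chromosome 2L, 3527387 to 3530317, minus strand, in the Ensembl BDGP6.54 annotation (FBgn0031549). This build is not known to be the one behind the tables. A single annotated transcript of 2543 nt has 6 exons and a 3′ untranslated region (3′UTR) of 166 nt. Its exons overlap those of CG8852 on the opposite strand by 202 bases, and CG8852 is not among the genes listed. The library kit is stranded, but whether strand was used in counting is not given in the sources used here. Reads from the shared stretch may therefore not have been told apart.

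nudE, whose product binds Lis-1 and dynein, was also far above input in both immunoprecipitates, and its ORB2 IP level was below that of control IP. Normalized counts of nudE were 486, 421 and 525 in ORB2 IP, 811, 1097 and 907 in control IP and then 192, 16.7 and 13.1 in input. The 3 groups did not overlap, and input replicate 1 held 11.5 times the value of the higher of the other inputs. ORB2 IP exceeded input by 3.71 on the log2 scale (SE 0.79) and control IP exceeded input by 4.68 (SE 0.81), ranks of 46 among 6344 genes and 12 among 6355. Without input replicate 1 the same differences were 4.91 (SE 0.26) and 5.88 (SE 0.21). The log2 fold change was −0.97 (SE 0.18) in ORB2 IP against control IP, and 8.59% of the 6318 genes fitted had a lower one. Without ORB2 IP replicate 3 it was −1.04.

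nudE (FBgn0036059) spans chromosome 3L, 9899241 to 9903031, plus strand. It has 5 annotated transcripts, and the one with the longest 3′UTR is 2133 nt long with 752 nt of 3′UTR. It shares exon bases with CG46387 on the same strand, a gene that is not among those listed, so reads there may belong to either.

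**Figure D1:**
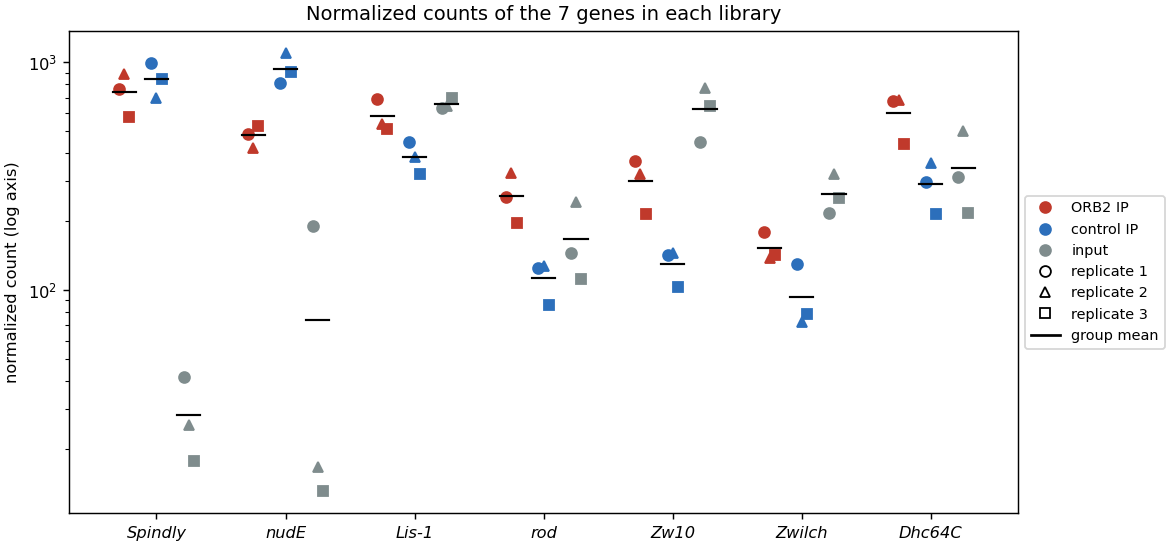
Normalized counts (log axis) of the 7 genes in each library, coloured by group, with replicates 1 to 3 as circles, triangles and squares and group means as black lines. Spindly and nudE lie far above input in both immunoprecipitates, and nudE in input replicate 1, at 192, stands apart from 16.7 and 13.1 in the other inputs.

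Lis-1, the dynein regulator that partners NudE, had the most even levels of the 7. Its normalized counts were 688, 538 and 512 in ORB2 IP, 448, 382 and 323 in control IP and then 632, 640 and 694 in input. Every ORB2 IP library lay above every control IP library, and ORB2 IP overlapped input. The log2 fold change was 0.59 (SE 0.19) in ORB2 IP against control IP, −0.19 (SE 0.21) in ORB2 IP against input and −0.78 (SE 0.19) in control IP against input. The gene (FBgn0015754) lies on chromosome 2R, 16178826 to 16185103, plus strand, and its 3′UTR of up to 1427 nt is longer than those of 89.2% of listed protein-coding genes.

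The transcripts of the Rod, Zw10 and Zwilch complex, which recruits Spindly and dynein to kinetochores, were each higher in every ORB2 IP library than in any control IP library. rod, the largest subunit, had 255, 325 and 196 normalized counts in ORB2 IP, 125, 127 and 86.0 in control IP and then 146, 244 and 112 in input. ORB2 IP exceeded control IP by 1.18 on the log2 scale (SE 0.24), or 1.36 without ORB2 IP replicate 3. Against input ORB2 IP stood at 0.67 (SE 0.32) with overlapping groups, and the sign changed to −0.11 with equal library totals, where the median of all genes stood at −0.81, and to −0.09 with the trend on transcript length removed. Control IP against input was −0.51 (SE 0.31), also with overlapping groups.

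Zw10 had 368, 324 and 215 normalized counts in ORB2 IP, 143, 146 and 103 in control IP and then 446, 772 and 644 in input. The groups did not overlap and were ordered with control IP lowest and input highest. The log2 fold change was 1.18 (SE 0.23) in ORB2 IP against control IP, or 1.41 without ORB2 IP replicate 3. It was −1.04 (SE 0.29) in ORB2 IP against input and −2.22 (SE 0.26) in control IP against input, where only 1.72% of genes had a lower value. Without input replicate 1 the last 2 values were −1.26 and −2.44.

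Zwilch, the smallest of the 3 subunits by coding length (1923 nt), showed the same order of groups as Zw10. It had 179, 138 and 143 normalized counts in ORB2 IP, 130, 72.2 and 78.3 in control IP and then 217, 322 and 253 in input. The lowest ORB2 IP library was 1.06 times the highest control IP library, so these groups only just separated. The log2 fold change was 0.75 (SE 0.25) in ORB2 IP against control IP, −0.77 (SE 0.25) in ORB2 IP against input and −1.52 (SE 0.28) in control IP against input. rod (FBgn0003268) lies on chromosome 3R, 31580951 to 31588244, plus strand, and Zwilch (FBgn0061476) on chromosome 3R, 31210966 to 31213376, minus strand. Zw10 (FBgn0004643) lies on chromosome X, 2604197 to 2606824, plus strand, and overlaps exons of Smyd3 on the opposite strand by 145 bases. Smyd3 had 91.0, 45.0 and 53.5 normalized counts in ORB2 IP, 45.6, 32.7 and 26.6 in control IP and then 87.5, 158 and 131 in input.

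Dhc64C, the heavy chain that holds the dynein motor, had 676, 684 and 439 normalized counts in ORB2 IP, 297, 361 and 216 in control IP and then 314, 497 and 219 in input. ORB2 IP lay above control IP in 3 of 3 libraries, at 1.04 on the log2 scale (SE 0.23), and overlapped input at 0.85 (SE 0.32). Without ORB2 IP replicate 3 the values were 1.25 and 1.06. Against control IP the value was 0.22 with the trend on transcript length removed. Against input it turned to −0.54 with that trend removed and was 0.07 with equal library totals. Control IP and input overlapped at −0.19 (SE 0.31), and this value was 0.01 without control IP replicate 3 and 0.12 without input replicate 2. The gene (FBgn0261797) covers chromosome 3L, 4807368 to 4825687, minus strand. Its transcript of 14401 nt is longer than those of 99.7% of listed protein-coding genes, and it shares 39 exon bases with CG18808 on the same strand.

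Between ORB2 IP and control IP, 5 of the 7 genes lay higher with no overlap between groups and 1 lay lower. Over all genes the shares were 27.6% and 28.3%. Between ORB2 IP and input, 2 genes lay higher and 2 lower without overlap, where all genes gave 30% and 32.1%. In control IP against input 2 lay higher and 3 lower without overlap, where all genes gave 36.1% and 37.1%. Every comparison shares its libraries with the other two.

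**Figure D2:**
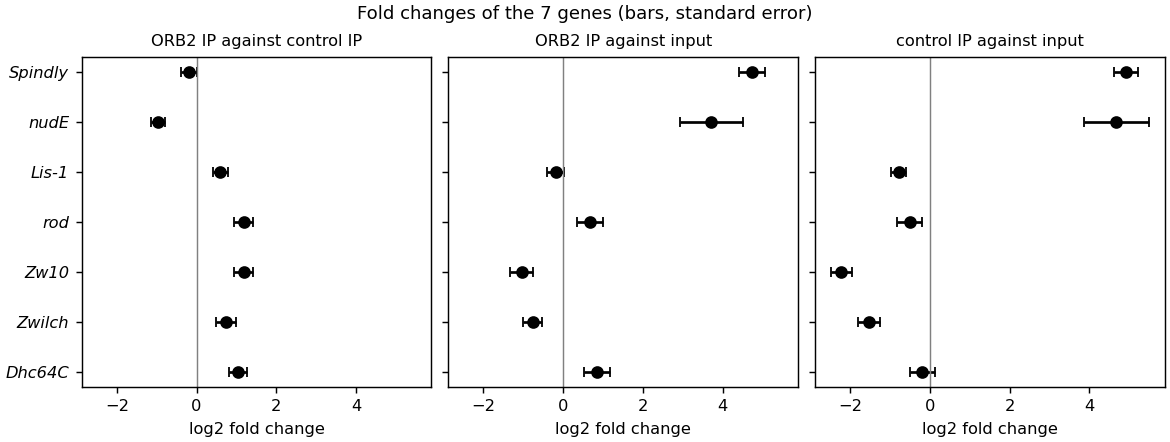
Log2 fold change with its standard error for the 7 genes in ORB2 IP against control IP, ORB2 IP against input and control IP against input. Spindly and nudE stand at 3.71 to 4.92 against input in both immunoprecipitates, while the other 5 genes lie between −2.22 and 1.18 in all 3 panels.

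The order of the 7 transcripts per length, in TPM, differed between the immunoprecipitates and the extract. In ORB2 IP nudE averaged 87.7 ± 20.8 TPM, Lis-1 85.9 ± 33.7 and Spindly 83.1 ± 27.7 (SD, n = 3 each), with overlapping values. Next came Zw10 at 34.5 ± 15.7, Zwilch at 20.1 ± 7.5, Dhc64C at 11.4 ± 4.51 and rod at 10.6 ± 3.59 TPM, each overlapping its neighbour. In control IP nudE led at 144 ± 30.5 TPM, ahead of Spindly at 76.6 ± 8.76 and Lis-1 at 45.8 ± 6.08, with no overlap between them. Zw10 at 11.9 ± 2.33 overlapped Zwilch at 9.79 ± 2.71, and Dhc64C at 4.47 ± 1.26 overlapped rod at 3.80 ± 0.818 TPM.

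In input Lis-1 led at 124 ± 12.6 TPM (SD, n = 3) and overlapped Zw10 at 90.6 ± 33.1, which lay above Zwilch at 44.9 ± 14.4. Below these, nudE at 17.2 ± 23.4, rod at 9.23 ± 4.95, Dhc64C at 8.58 ± 4.6 and Spindly at 4.09 ± 1.74 TPM each overlapped the next. The nudE average rests on input replicate 1, since the 3 inputs held 44.3, 4.58 and 2.83 TPM. In RNA from whole embryos, a transcript confined to part of the embryo and one at a low level throughout cannot be told apart.

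Within a library, Spindly took 23.4%, 29.5% and 21.8% of the summed TPM of the 7 genes in ORB2 IP. Its share was 29.8%, 20.8% and 27.8% in control IP and then 2.09%, 1.16% and 0.899% in input. nudE took 24.9%, 23.3% and 33.0% in ORB2 IP, 40.7%, 54.3% and 49.7% in control IP and then 16.0%, 1.26% and 1.11% in input. Spindly had 8.08, 7.43 and 7.98 times the TPM of rod in ORB2 IP, 21.4, 14.9 and 26.7 times in control IP, and 0.772, 0.284 and 0.426 times in input. In these ratios any scaling of a library as a whole drops out.

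Pearson correlations over the 9 libraries, on log2(normalized count + 1), describe how the 7 patterns resemble each other, and all points share the libraries and their scaling. Spindly and nudE had an r of 0.92 with each other. A second set of like patterns was Zw10 and Zwilch (0.94), Lis-1 and Zw10 (0.92) and Lis-1 and Zwilch (0.91). rod and Dhc64C formed another, at 0.96. Spindly and nudE ran opposite to Zw10, at −0.82 and −0.88.

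Of 4905 other genes with a mean of at least 100 normalized counts, the 5 most like Spindly by Pearson r over the 9 libraries were CG7692 (0.997), CG10984 (0.995), CG31251 (0.992), CG13197 (0.989) and Trf4-1 (0.980). CG10984 had 242300, 391000 and 206000 normalized counts in ORB2 IP, 329200, 279900 and 293300 in control IP and then 371, 168 and 203 in input. CG7692 had 30790, 44000 and 25990 in ORB2 IP, 55510, 40260 and 42070 in control IP and then 159, 106 and 76.5 in input. These 2 genes share with Spindly high values in all 6 immunoprecipitates and low values in all 3 inputs, at a far larger scale. Trf4-1, which encodes a non-canonical poly(A) polymerase, had the same shape at a small scale, with 521, 502 and 568 normalized counts in ORB2 IP, 561, 513 and 535 in control IP and then 214, 232 and 217 in input.

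The 5 genes most like nudE were Eb1 (0.998), CG15436 (0.997), CG2924 (0.997), CG11307 (0.997) and CG12129 (0.996). Eb1, which encodes a protein that binds microtubule plus ends, had 993, 856 and 864 normalized counts in ORB2 IP, 1228, 1354 and 1383 in control IP and then 541, 136 and 114 in input. As with nudE, control IP was highest and input replicate 1 lay between the immunoprecipitates and the other inputs. CG15436 had 155, 147 and 210 in ORB2 IP, 292, 285 and 315 in control IP and then 81.2, 9.35 and 7.44 in input. The raised input replicate 1 is part of this shared pattern, and its part in the likeness was not tested.

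**Figure D3:**
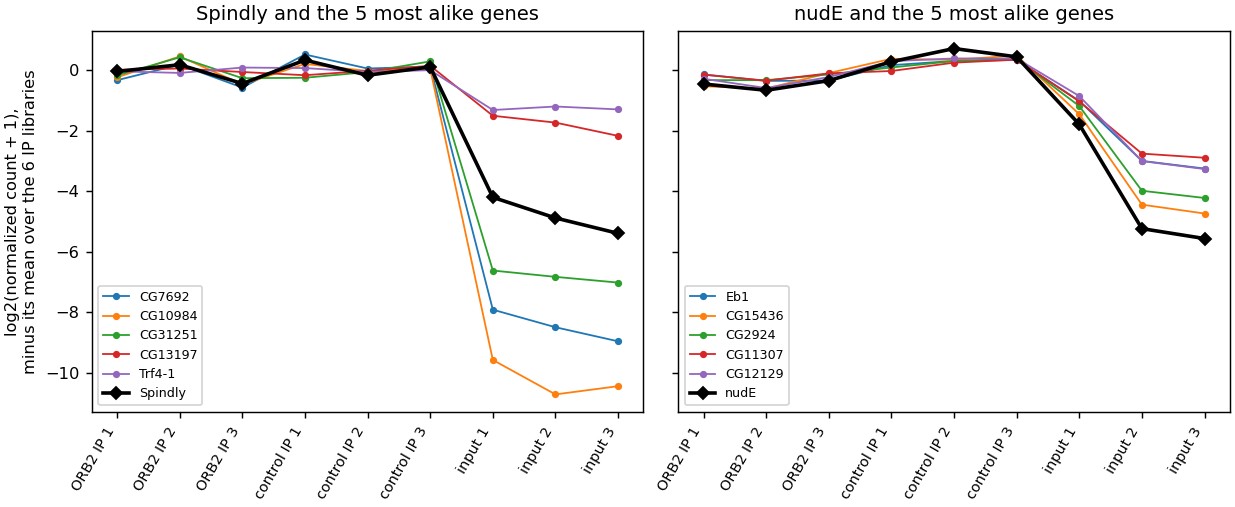
Log2(normalized count + 1) minus its mean over the 6 immunoprecipitates, in the 9 libraries, for Spindly (left) and nudE (right), each in black with the 5 genes of highest Pearson correlation in colour. The Spindly-like genes are low in all inputs, and the nudE-like genes share a higher input replicate 1.

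Other genes of dynein transport and of the kinetochore were followed as 5 lists with 71 genes, of which 62 were listed and fitted. These lists were also chosen with earlier results of these data known. Their p-values are therefore a description and not independent support. For ORB2 IP against control IP limma called 17 of the 62 higher (27.4%) and 15 lower (24.2%) at an adjusted p below 0.05, and the median log2 fold change was 0.05. Over all 6318 genes 20.8% were called higher and 21.6% lower, 42.5% in either direction, with a median of 0. The count of higher list genes was 10 without control IP replicate 3 and 11 without ORB2 IP replicate 2. It was 20 without ORB2 IP replicate 3, with 16 lower. Exons of DCTN3-p24, DCTN5-p25, DCTN6-p27, Kmn1, Bub3, nod, neb, mad2, Nuf2 and cmet overlap a gene on the opposite strand by 25 to 217 bases. Whether strand was used in counting is not given, so reads there may not have been told apart.

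Of the 5 fitted dynein subunits other than Dhc64C, 3 fell in ORB2 IP against control IP, 1 rose and 1 was not called. That is 60% lower and 20% higher, where all genes gave 21.6% lower and 20.8% higher. The light chain genes Dlc90F, robl and ctp fell by 1.06 (SE 0.26; limma adjusted p 0.00911), 0.88 (SE 0.23; limma adjusted p 0.011) and 0.68 (SE 0.18; limma adjusted p 0.013) on the log2 scale. With the length trend removed only 1 dynein subunit was called lower, the Dlc90F call was lost (−0.31) and robl stood at 0.14. The ctp call was lost with all 9 libraries in the fit (−0.68) and in the TPM table (−0.43). Dlc90F had 1011, 1671 and 2339 normalized counts in ORB2 IP, against 3210, 3211 and 3453 in control IP. Dlic, the light intermediate chain that contacts cargo adaptors, rose by 1.13 (SE 0.20; limma adjusted p 0.0023), with 610, 668 and 431 in ORB2 IP against 279, 271 and 221 in control IP. The intermediate chain sw did not pass the test, at 0.01 (SE 0.16). It has near-identical Sdic copies, so its value is uncertain, and ctp has a close paralogue, Cdlc2, that is not among the genes listed. The list median was −0.68.

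Dynactin, the complex that lets dynein move processively, had 10 fitted subunits, of which 1 rose and 4 fell in ORB2 IP against control IP. These shares were 10% and 40%, where all genes gave 20.8% and 21.6%. With the replicate number as a block, or without ORB2 IP replicate 3, 2 rose. The subunits had a list median of −0.06. It was 0.09 with equal upper quartiles, 0.19 in the TPM table and 0.08 with the length trend removed. The median of all genes in these settings stood at 0.15, 0.24 and 0.05. DCTN1-p150, the large subunit that binds dynein and microtubules, rose by 1.39 (SE 0.26; limma adjusted p 0.00317), at 433, 366 and 262 normalized counts in ORB2 IP against 136, 184 and 91.6 in control IP. DCTN3-p24 fell by 1.44 (SE 0.20; limma adjusted p 8.59e-04), at 154, 132 and 202 in ORB2 IP against 482, 440 and 393 in control IP. DCTN5-p25 and DCTN6-p27, small subunits of the pointed end, fell by 1.05 (SE 0.24) and 0.89 (SE 0.25), with limma adjusted p of 0.00598 and 0.0153. The DCTN6-p27 call was lost without control IP replicate 1 (−0.81) and without ORB2 IP replicates 1 (−0.68) or 2 (−0.82). With the length trend removed the calls of DCTN5-p25 (−0.24) and DCTN6-p27 (−0.06) were lost, and 3 dynactin genes were higher and 1 lower. With equal upper quartiles 2 were higher.

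Among 13 other adaptors and regulators of dynein 6 rose and 2 fell in ORB2 IP against control IP, or 3 rose without control IP replicate 3 or without ORB2 IP replicate 2. The 6 and 2 were 46.2% and 15.4% of the list, where all genes gave 20.8% and 21.6%. The list median was 0.28. It was −0.08 with equal totals, where the median of all genes stood at −0.35. With the length trend removed it was −0.14, where all genes stood at 0.05. syd, a scaffold that links motors to vesicles, rose by 1.32 (SE 0.34; limma adjusted p 0.00962). mud, which anchors dynein to orient spindles and whose exons share 8769 bases with an antisense RNA gene (asRNA:CR46473), rose by 1.02 (SE 0.24; limma adjusted p 0.00684), CLIP-190, a plus-end protein, by 0.97 (SE 0.28; limma adjusted p 0.0161) and egl, which ties localized mRNAs to dynein, by 0.87 (SE 0.18; limma adjusted p 0.00477). The CLIP-190 call was lost without control IP replicate 3 (0.75) and without ORB2 IP replicates 1 (0.87) or 2 (0.80), with equal totals (0.62) and with all 9 libraries in the fit (0.97). The mud call was lost with the length trend removed (0.35) and with all 9 libraries (1.02), and the egl call with equal totals (0.51). Genes of the list called higher numbered 2 with equal totals, 2 with all 9 libraries and 3 with the length trend removed. BicD, the adaptor that works with Egl, did not share its direction and fell by 0.70 (SE 0.20; limma adjusted p 0.0164). nudC, another dynein regulator, fell by 0.73 (SE 0.20; limma adjusted p 0.0132). BicD and nudC lie outside the naming rule and were chosen after their values were seen. Without control IP replicate 3 no gene of this list was called lower, and without control IP replicate 2 or ORB2 IP replicate 2 only 1 was. Both falls were lost in the TPM table, and 4 genes were lower with the length trend removed.

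Of 18 fitted kinetochore and spindle checkpoint genes 2 rose and 6 fell in ORB2 IP against control IP. They made up 11.1% and 33.3% of the list, where all genes gave 20.8% and 21.6%. The list median was −0.24, or 0.02 in the TPM table, where the median of all genes stood at 0.24. Kmn1 and Spc25, small structural subunits of the microtubule-binding kinetochore network, fell by 1.19 (SE 0.22; limma adjusted p 0.0029) and 1.13 (SE 0.16; limma adjusted p 9.84e-04). Spc25 had 365, 359 and 376 normalized counts in ORB2 IP, against 901, 823 and 703 in control IP. The fall count was 3 without control IP replicate 1, and the rise count was 1 without any 1 of the control IP libraries or without ORB2 IP replicates 1 or 2. Bub3, a checkpoint protein, fell by 0.78 (SE 0.16; limma adjusted p 0.00478). cmet, a kinetochore motor related to CENP-E, rose by 0.82 (SE 0.20; limma adjusted p 0.0077), at 427, 402 and 354 in ORB2 IP against 231, 273 and 174 in control IP. The cmet call was lost with the length trend removed (0.23), with equal totals (0.46) and with all 9 libraries in the fit (0.82). With equal totals and with all 9 libraries both rises of this list were lost, and 3 genes were called lower with all 9 libraries and in the TPM table.

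Kinesins mostly walk towards plus ends, and their list leaves out the kinetochore kinesins cmet and cana, which are counted with the kinetochore genes. Among its 16 genes 7 rose and 0 fell in ORB2 IP against control IP by limma, with a list median of 0.41. As shares these were 43.8% and 0%, where all genes gave 20.8% and 21.6%. At an unadjusted p below 0.05, 1 kinesin was lower, and 1 was called lower with the replicate number as a block or without ORB2 IP replicate 1. Khc-73 rose by 1.18 (SE 0.26; limma adjusted p 0.00535), Klp3A by 1.16 (SE 0.26; limma adjusted p 0.00564), nod by 0.98 (SE 0.21; limma adjusted p 0.00497) and Klp64D by 0.96 (SE 0.25; limma adjusted p 0.0116). Klp3A averaged 352 ± 121 normalized counts in ORB2 IP and 151 ± 22.6 in control IP (SD, n = 3 each). The count of risen kinesins was 4 without control IP replicate 3, 2 with equal totals and 3 with the length trend removed. With either of these last settings 2 kinesins were called lower, and 1 was with a pseudocount of 10 or a filter at 50. The Khc-73 call was lost with the length trend removed (0.51), and the nod (0.62) and Klp64D (0.61) calls with equal totals.

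**Figure D4:**
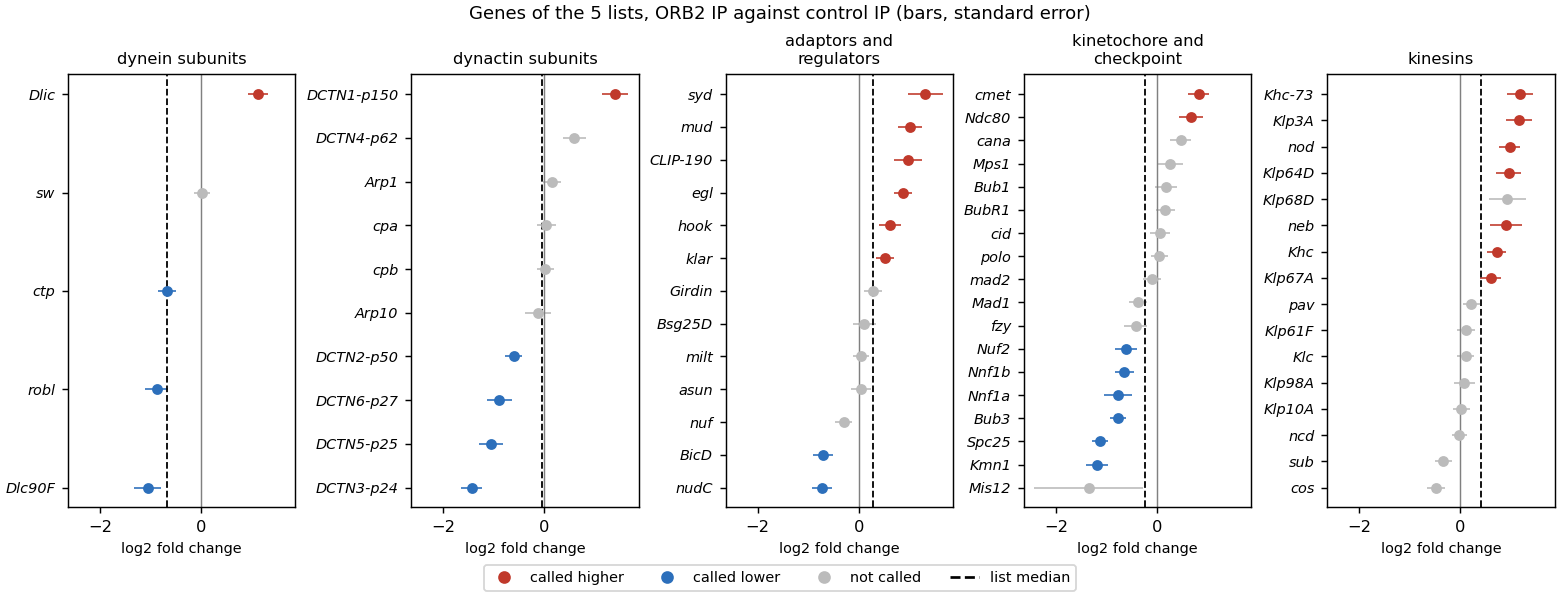
Log2 fold change in ORB2 IP against control IP, with its standard error, of the 62 fitted genes of the 5 lists, coloured by call, with each list's median as a dashed line. Dynein and dynactin hold 3 of 5 and 4 of 10 genes that fell and 1 each that rose. In the kinesin list 7 of 16 genes rose. Over all genes 20.8% were called higher and 21.6% lower.

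Transcript length moved with these changes. Across the 62 list genes the Spearman correlation of transcript length with the log2 fold change in ORB2 IP against control IP was 0.62, and across 6272 genes with an annotated length it was 0.53. Against input the correlation in ORB2 IP was 0.16 for list genes and 0.08 for all genes, while in control IP both stood at −0.20. Genes are not independent replicates and share the libraries. The 17 list genes that rose had a median transcript of 3718 nt (1900 to 8871 nt), and the 15 that fell had 1002 nt (527 to 5361 nt). Over all genes the medians were 3436 nt for those called higher and 1241 nt for those called lower. Of the 7 genes, Dhc64C (14401 nt) and rod (6479 nt) have the longest transcripts, and Lis-1, Zw10, Spindly, Zwilch and nudE have 3292, 2567, 2543, 2232 and 2133 nt. With the length trend removed from each library, the log2 fold change in ORB2 IP against control IP was 0.22 for Dhc64C, 0.62 for rod and 0.31 for Lis-1. It was 1.02 for Zw10, 0.66 for Zwilch, −1.02 for nudE and −0.36 for Spindly. These lengths are of the annotated transcript with the longest 3′UTR of each gene, which need not be the one expressed. CLIP-190, at 1900 nt, has 15 annotated transcripts, and ctp, at 4416 nt, has 5. The part of length in the differences was not tested.

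**Figure D5:**
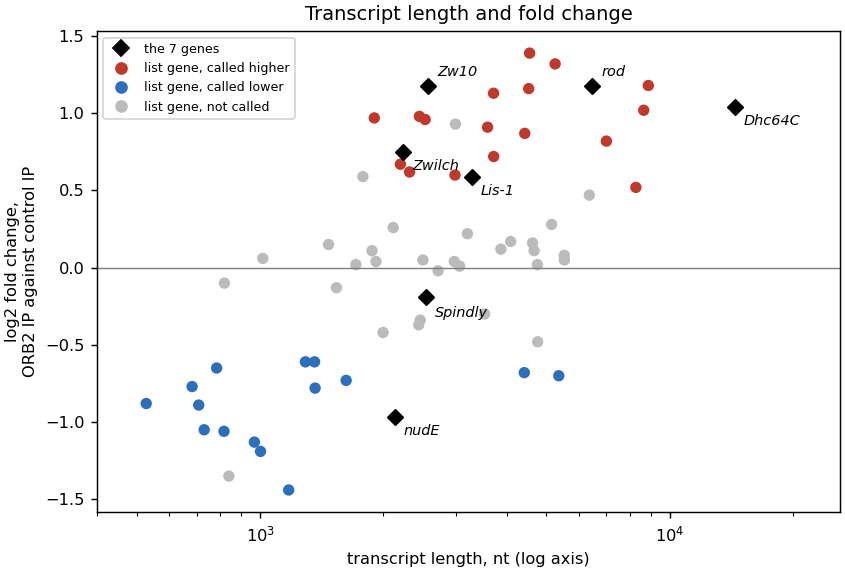
Transcript length (nt, log axis) and log2 fold change in ORB2 IP against control IP for the 7 genes (black diamonds) and the 62 list genes (circles, coloured by call). Genes called lower are mostly short, those called higher are mostly long, and Spindly and nudE lie lower than Zw10 and Zwilch at similar lengths.

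For ORB2 IP against input limma called 14 of the 62 higher (22.6%) and 14 lower (22.6%), where all genes gave 26% higher and 25.1% lower, 51.1% in either direction. Without input replicate 3 the counts were 9 higher and 7 lower, and without ORB2 IP replicate 2 the higher genes numbered 9. In control IP against input 19 were higher (30.6%) and 21 lower (33.9%), where all genes gave 33.5% and 32.3%, 65.7% in either direction. Without input replicate 1 these counts were 19 and 21 in ORB2 IP against input, and 23 and 25 in control IP against input.

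The dynein light chain gene ctp had the largest rise against input among the called list genes, in both immunoprecipitates. It had 1669, 1551 and 2091 normalized counts in ORB2 IP, 2900, 2642 and 2908 in control IP and then 689, 47.4 and 65.3 in input. As for nudE, all groups were separate and input replicate 1 was far above the other inputs. Exons of ctp overlap a transposable element, HMS-Beagle, on the same strand by 261 bases, so reads there may belong to either. They overlap another, jockey, on the opposite strand by 267 bases, where reads may not have been told apart. The rise was 3.75 in ORB2 IP (SE 0.78; limma adjusted p 0.0043) and 4.43 in control IP (SE 0.80; limma adjusted p 0.00116). mad2, a checkpoint protein, rose by 2.26 in ORB2 IP (SE 0.47; limma adjusted p 0.00418) and by 2.36 in control IP (SE 0.46; limma adjusted p 0.00178). Its counts were 433, 453 and 589 in ORB2 IP, 512, 484 and 568 in control IP and then 251, 66.1 and 61.4 in input. Without input replicate 1 the rises of ctp were 4.95 in ORB2 IP and 5.63 in control IP, and those of mad2 were 2.91 and 3.01.

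The kinetochore list held 7 genes that rose and 4 that fell in ORB2 IP against input. Of its 18 genes these were 38.9% and 22.2%, where all genes gave 26% and 25.1%. In control IP against input 9 rose and 4 fell (50% and 22.2%), where all genes gave 33.5% and 32.3%. The list median was 0.65 in ORB2 IP, or −0.13 with equal totals, where all genes stood at −0.81, and 0.82 in control IP. cmet and cana, its kinetochore kinesins, rose by 2.30 (SE 0.45; limma adjusted p 0.00373) and 2.13 (SE 0.53; limma adjusted p 0.00885) in ORB2 IP. cana had 503, 674 and 431 normalized counts in ORB2 IP, against 342, 59.7 and 82.4 in input. The rise of cana was 2.89 and that of cmet 2.91 without input replicate 1, and without input replicate 2 they were 1.64 and 1.87. In control IP Nnf1b and Nnf1a, structural kinetochore subunits, rose by 2.09 (SE 0.30; limma adjusted p 4.66e-04) and 2.09 (SE 0.43; limma adjusted p 0.00222), and Nuf2 by 1.91 (SE 0.46; limma adjusted p 0.00538). The rises of Nnf1b, Nnf1a and Nuf2 were 2.42, 2.51 and 2.54 without input replicate 1. With equal totals 4 genes of the list rose in ORB2 IP against input. Mis12, another structural subunit, fell by 3.21 in ORB2 IP (SE 1.11; limma adjusted p 0.0343), at 33.6, 0 and 29.0 normalized counts against 70.1, 89.5 and 126 in input. It fell by 1.54 without ORB2 IP replicate 2. The value of 0 is in the coarsest library, ORB2 IP replicate 2, and the call was lost without input replicate 2 (−3.23) or 3 (−2.99). Without input replicate 3, 1 gene of the list fell in ORB2 IP against input.

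By limma, the kinesin list, which leaves out cmet and cana, held 0 genes that rose and 5 that fell in ORB2 IP against input. There 1 was higher at an unadjusted p below 0.05, and 2 were called higher without input replicate 1. The 0 and 5 were 0% and 31.2% of its 16 genes, where all genes gave 26% and 25.1%. In control IP against input 1 gene of the list rose and 8 fell (6.25% and 50%), where all genes gave 33.5% and 32.3%. cmet and cana were also called higher there, at 1.47 and 1.67, with overlapping groups. Without input replicate 3, 3 kinesins fell in ORB2 IP, and without input replicate 1, 2 rose in control IP. neb fell by 1.43 (SE 0.33; limma adjusted p 0.00626) in ORB2 IP and fell by 2.34 (SE 0.33; limma adjusted p 4.17e-04) in control IP, and nod fell by 1.06 (SE 0.26; limma adjusted p 0.00866) and fell by 2.04 (SE 0.21; limma adjusted p 2.73e-04) in the same comparisons. milt, which couples mitochondria to motors, fell by 1.40 (SE 0.24; limma adjusted p 0.00287) in ORB2 IP and by 1.45 (SE 0.21; limma adjusted p 4.67e-04) in control IP, at 854, 827 and 743 normalized counts in ORB2 IP, 806, 789 and 748 in control IP and then 1597, 2511 and 2422 in input. Dynactin held 1 gene that rose and 2 that fell in ORB2 IP against input, or 10% and 20% of its 10 genes. In control IP against input 2 dynactin genes rose and 4 fell (20% and 40%), and DCTN1-p150 fell by 1.92 (SE 0.31; limma adjusted p 7.06e-04). Without input replicate 1, 5 dynactin genes fell in ORB2 IP against input, without input replicate 2 or 3 or ORB2 IP replicate 2 only 1 fell, and the rise was lost without any of these last 3 libraries or ORB2 IP replicate 3. In control IP 1 dynactin gene rose without control IP replicates 2 or 3 or input replicates 2 or 3. By limma, dynein subunits held 2 genes that rose and 0 that fell in ORB2 IP against input, or 1 that rose without input replicates 2 or 3 or ORB2 IP replicates 1 or 2, and 3 that rose and 0 that fell in control IP, or 1 that fell without input replicate 1. At an unadjusted p below 0.05, 0 dynein subunits were lower in ORB2 IP and 2 in control IP. Other adaptors held 4 that rose and 3 that fell in ORB2 IP against input, or 30.8% and 23.1% of 13. In control IP against input 4 rose and 5 fell (30.8% and 38.5%), where all genes gave 33.5% and 32.3%. There 2 adaptors rose without control IP replicate 2 or input replicates 2 or 3. In the same comparison 3 adaptors fell without control IP replicates 1 or 2 or input replicate 3. The adaptors mud and CLIP-190 rose by 2.49 (SE 0.46; limma adjusted p 0.00315) and 2.39 (SE 0.40; limma adjusted p 0.00284) in ORB2 IP against input, or 3.11 and 2.79 without input replicate 1. With equal totals the genes called lower in ORB2 IP against input numbered 10 kinesins, 8 dynactin genes, 8 adaptors and 2 dynein subunits, and the adaptors called higher numbered 2. The TPM table kept no call of a higher adaptor or dynactin gene in control IP against input, where 27.1% of all calls were higher.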

How the data were processed

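RNA from immunoprecipitates and input was sequenced after ribosomal RNA depletion with a stranded kit, per the labels' protocols. The submitters' processing notes name Salmon 1.9.1, DESeq2 1.42.1 and the trimmer Trim Galore 0.6.5, without role or order. The genome build is not given in the sources used here. The authors deposited TPM values and normalized counts, which are a scaled signal and not whole counts, for 6440 genes. The scaling and the depth are not stated. All 9 columns were mapped by the column names in the labels.

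Normalized counts were tested as log2(value + 1) with limma 3.58.1 (moderated trend, R 4.3.3), separately for each comparison. Genes with a mean of at least 10 over its 6 libraries entered, and p-values were adjusted by Benjamini-Hochberg over all of them. Genes with adjusted p below 0.05 were called. Fold changes are on this scale and understate those of low genes. The 7 genes and the lists were chosen with earlier results of these data known, so the 7 carry no test. For the same reason the p-values of list genes are not independent support. Named list genes were up to 4 called genes per list with the largest change and no overlap between groups. Likeness was searched among genes with a mean of at least 100.

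Gene models came from Ensembl BDGP6.54, where 6394 of 6440 genes matched. No sequence was used, and a planned search of 3′UTR motifs was not run. Simulated data with 200 changed genes were fitted for ORB2 IP against control IP, ORB2 IP against input and control IP against input. The fit recovered 51%, 28% and 33% of changes of 1 and 89%, 80% and 87% of changes of 2 (log2). It also called 7, 8 and 11 unchanged genes. In the data 42.5%, 51.1% and 65.7% of genes were called, a far larger share than was changed in the simulation. These rates therefore do not give the sensitivity in the data.

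Replicate numbers are shared by the groups. The deviations of same-numbered ORB2 IP and control IP libraries from their group means correlated at 0.1003, 0.2199 and 0.2684 across genes. The numbers may thus pair these groups, a reading from the data and not from the labels. The main fits used no replicate block, so SEs and p-values given here are unpaired, and the block is an alternative. Alternatives were pseudocount 10, no filter, a filter at 50, equal totals, equal upper quartiles, the TPM table, all 9 libraries, the replicate block, each library left out, and, added after seeing the data, removal of a loess trend on transcript length.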

Additional observations from a re-analysis of the deposited data

How the results depend on the processing

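Of 315 values of the 7 genes under alternatives, 282 moved by less than the gene's own residual SD in the main fit and 6 changed sign. This measure is lenient where replicates differ widely. For nudE the moves from 3.71 to 4.91 and from 4.68 to 5.88, without input replicate 1, fell within it. The scaling could not be checked against depth, and it moved the median of all genes. With equal totals that median was −0.35, −0.81 and −0.41 in ORB2 IP against control IP, ORB2 IP against input and control IP against input, and 15%, 15.9% and 32.9% of calls were higher, compared with 49.1%, 50.8% and 50.9%. In the TPM table the medians were 0.24, −0.41 and −0.59 and the shares 65.7%, 31.6% and 27.1%. With equal upper quartiles 63.5% of calls were higher in ORB2 IP against control IP. The 3 libraries in each group limit all values.

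With equal totals, 383 genes were higher and 2178 lower in ORB2 IP against control IP, 604 and 3195 in ORB2 IP against input, and 1403 higher in control IP against input. List genes higher were 6, 7 and 12 in these comparisons, and 34 were lower in ORB2 IP against input. For ORB2 IP against control IP, Lis-1 stood at 0.23, nudE −1.33, rod 0.82, Spindly −0.55, Zw10 0.83 and Zwilch 0.39. For ORB2 IP against input, Dhc64C stood at 0.07, Lis-1 −0.97, rod −0.11, Spindly 3.96, Zw10 −1.81, Zwilch −1.55, cpa −0.07 and Dlic −0.12. In control IP against input, Lis-1 stood at −1.20, Zw10 −2.64 and Zwilch −1.94.

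In the TPM table, 708 genes and 8 list genes were lower in ORB2 IP against control IP. In ORB2 IP against input, 970 genes and 9 list genes were higher and 22 list genes lower. In control IP against input, 1173 genes and 9 list genes were higher and 3158 genes lower. For ORB2 IP against control IP, Lis-1 stood at 0.83, nudE −0.71 and Spindly 0.06. In ORB2 IP against input, Lis-1 stood at −0.58, Spindly 4.05 and Zwilch −1.13. In control IP against input, Dhc64C stood at −0.73, Lis-1 −1.42, rod −1.0, Spindly 3.99, Zw10 −2.78 and Zwilch −2.07.

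With the length trend removed, Dhc64C stood at 0.22, Lis-1 0.31, rod 0.62 and robl 0.14 in ORB2 IP against control IP. For ORB2 IP against input, Dhc64C stood at −0.54 and rod −0.09, and 23 list genes were lower. In control IP against input, Dhc64C stood at −0.76, Lis-1 −0.55 and robl −0.72. Fitting all 9 libraries together gave 891 genes lower and 9 list genes higher in ORB2 IP against control IP. The cause was not tested for any of these moves.

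Leaving out 1 library gave 716 to 1492 genes higher in ORB2 IP against control IP, lowest without control IP replicate 3, and 858 without ORB2 IP replicate 2. Genes lower in ORB2 IP against input ran from 891 to 1819, lowest without input replicate 3, with 1035 without input replicate 2. List genes higher ran from 10 to 20 in ORB2 IP against control IP and from 9 to 19 in ORB2 IP against input, and list genes lower from 7 to 21 in ORB2 IP against input. Calls of named list genes held under all alternatives for 8 of 20, 11 of 17 and 15 of 19 genes in ORB2 IP against control IP, ORB2 IP against input and control IP against input, and without each library for 18, 12 and 17.

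With the replicate block, ORB2 IP against control IP gave 1523 genes higher and 1501 lower, and 20 and 17 list genes. No named list gene lost its call under the block. For ORB2 IP and input the same correlations were −0.1869, 0.0968 and 0.1799, and ORB2 IP replicate 1 matched input replicate 2 best. For control IP and input they were 0.0396, 0.1854 and 0.177, and each replicate matched its own number best. Whether the numbers pair input with the immunoprecipitates is therefore not settled. Against input the block gave 1554 genes higher and 1421 lower for ORB2 IP, and 2144 and 2092 for control IP.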
